A study of Arabidopsis thaliana with 12 samples.

Results

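The 4 libraries taken at zeitgeber time 6 (ZT6; hours) were compared with the 4 libraries taken at ZT0, paired by genotype, which makes 8 of the 12 mRNA-seq libraries of the series. They come from rosette leaves of Arabidopsis thaliana grown on soil, 3 weeks old and not yet bolting, with 16 h of light at 22 °C and 8 h of dark at 20 °C. The genotypes were the reciprocal F1 hybrids ColxC24 and C24xCol and their parents, the accessions Col (Columbia) and C24; the labels name no transgene or mutation. Each genotype had 1 library at each time, so a difference between ZT6 and ZT0 was measured 4 times, once per genotype, and a difference within 1 genotype has no replicate. Whether a library held 1 plant or several is not stated. Where 4 values follow each other below, they are those of ColxC24, C24xCol, Col and C24, in that order.

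By convention ZT0 is the start of the light, so ZT6 lies 6 h into it. Leaves at the end of the night live on starch stored the day before, and in the light they turn to photosynthesis, starch synthesis and nitrogen assimilation. The circadian clock of plants, a set of transcription factors that repress each other in turn, sets many transcripts to a phase of the day: CCA1, LHY and their REVEILLE relatives are dawn factors, the pseudo-response regulators PRR9, PRR7 and PRR5 follow through the day, and TOC1 with the evening complex acts towards dusk.

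Levels are RPKM, read counts corrected for the length of the gene model and the depth of the library, summed over the gene models of a locus. Changes are differences, ZT6 minus ZT0, of log2(RPKM + 1) with the standard error (SE) of a limma fit with genotype as block. This scale understates the change of genes near 0 RPKM. A gene was called where its p, adjusted by Benjamini-Hochberg over all 17079 loci tested, was under 0.05. The spread behind each p is how unequally the 4 genotypes changed, not the error of repeated samples of 1 genotype. The hybrids carry the alleles of both parents, so the 4 genotypes are related, but the fit treats their changes as independent. The estimated depth of the 8 libraries was 16.8 to 26.2 M reads, which makes 1 read on 1 kb worth 0.0381 to 0.0596 RPKM.

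Leaf markers were among the highest loci in all 8 libraries (RBCS1A 22088 to 34931 RPKM at ZT6 and 26373 to 36762 RPKM at ZT0). Of the 4 mesophyll markers tested, LHCB1.1 was called higher (change 1.95), CA1 and RCA lower (-0.62 and -0.47), and RBCS1A was not called (-0.24). All 5 flower and all 4 seed markers were left out by the filter of a mean of 1 RPKM, and RSL4 of root hairs and the seed genes OLEO1 and ABI3 were listed at 0 in each library. Of 2 root markers tested 0 were called. The root marker PYK10 was at 9.45 RPKM in Col at ZT6 and at most 1.72 RPKM in the other 7. In the other root marker tested, all ZT6 libraries lay below all ZT0 libraries. That marker was called lower with a filter of a mean of 5 RPKM (change -0.51) and without the Col pair (change -0.65). Of the root markers, 1 was also called lower without the genotype block, in the fit of all 12 libraries and with rescaling over nuclear loci. The Col library of ZT6 stood apart from the other 3 in cold-regulated genes (COR15A 1768 RPKM, against 31.1 to 123 RPKM in the other genotypes at ZT6), so results that rest on it are also given without the Col pair. Of the guard cell markers 1 of 4, OST1, was called lower (change -0.58, adjusted p = 0.0438), a call lost in 8 alternatives, and 0 of 3 phloem markers were called by limma (adjusted p = 0.387 to 0.50).

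At ZT6, 4916 of 17079 loci were called (28.8%), 1595 higher (9.34%) and 3321 lower (19.4%). Of these, 4878 changed in the same direction in all 4 genotypes, 28 held genotypes of opposite sign and 10 had a change of exactly 0 in 1 genotype. In whole leaves a lower level from fewer cells of a type and from less RNA in each cell cannot be told apart. A change of at least 2-fold on the RPKM + 1 scale in each of the 4 genotypes was found for 288 loci upwards (1.69%) and 405 downwards (2.37%), and all of them were also called. Among called loci, 66 were higher by at least 3 on the log2 scale and 28 lower by at least 3. All 4 ZT6 libraries lay above all 4 ZT0 libraries in 1139 of the loci called higher, and below them in 2651 of those called lower; over all loci tested, called or not, these shares were 8.5% and 19.4%.

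The surplus of lower over higher calls depended on the scaling of the libraries. The median change over all loci was -0.139 as deposited and -0.006 with median-of-ratios scaling, with which 2368 loci were called higher and 2424 lower; quantile normalization gave 2316 and 2420. Small changes below are therefore read against the median of -0.139. The count of calls was 2235 without the ColxC24 pair, 3072 without the C24xCol pair and 3236 without the Col pair. In single genotypes, with no test, 653 loci (3.82%) were at least 2-fold higher and 1409 (8.25%) at least 2-fold lower in ColxC24. These numbers were 1353 (7.92%) and 1216 (7.12%) in C24xCol, 1256 (7.35%) and 1447 (8.47%) in Col, and 767 (4.49%) and 2334 (13.7%) in C24.

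Of the loci tested, 408 reached a mean of 1 RPKM at ZT6 only and 325 at ZT0 only, so that the filter left them 1 direction; 157 and 135 of them were called. Among the genes and loci described below, the filter left only a rise to VSP1, PRR7, PRR9, LNK1, RVE7, GI, PRR5, PIF4, BAM5, PAP1, CIPK20, JAZ10, HSP17.6II, LTP4, ELI3-2 and AT3G02480, and only a fall to BOA, JMJD5, COR27, CO, COL9, NRT2.1, HSFA7A, AT1G49200 and AT1G26790. At the edge of the filter, AT4G36120 was kept with a mean of 1.0002 RPKM and AT1G18420 was left out with 0.99976 RPKM.

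**Figure D1:**
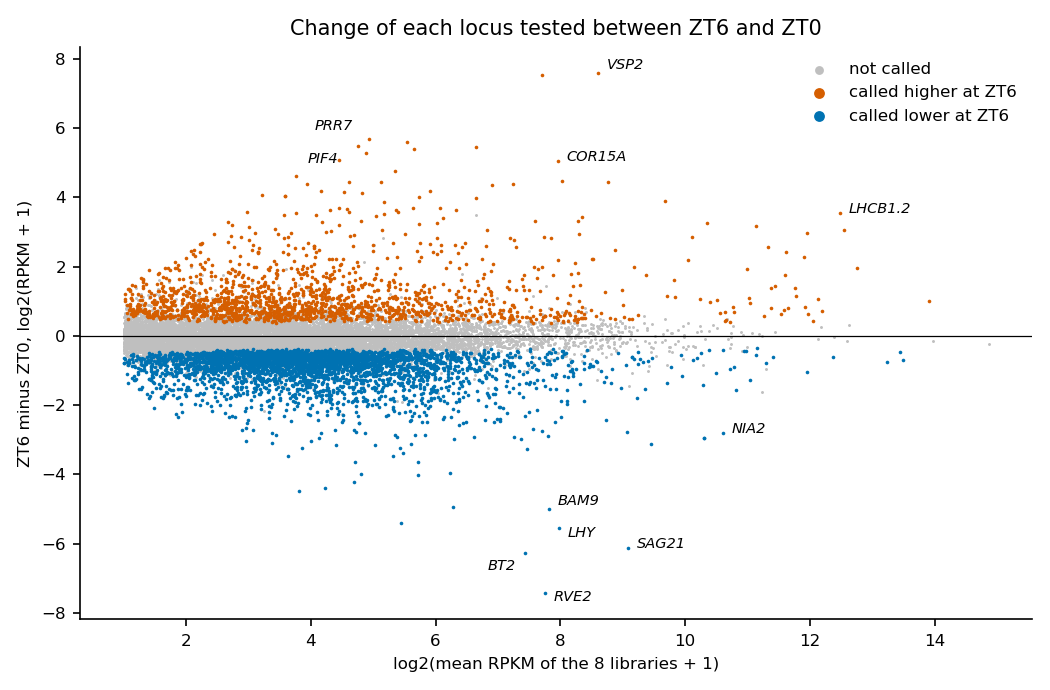
Change of each of the 17079 loci tested (vertical axis: ZT6 minus ZT0, log2 of RPKM + 1) against its mean level in the 8 libraries (horizontal axis: log2 of RPKM + 1). Points are loci, orange where called higher at ZT6 (1595), blue where called lower (3321) and grey where not called; VSP2 lies at the top with a change of 7.59 and RVE2 at the bottom with -7.43.

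Dawn clock genes were among the widest falls. RVE2 (AT5G37260), a MYB-related factor of the REVEILLE family, had 0.822, 0.912, 3.58 and 1.24 RPKM at ZT6, against 335, 355, 575 and 452 RPKM at ZT0. All ZT6 values lay far below all ZT0 values, with Col the highest at both times (change -7.43, SE 0.15, adjusted p = 3.4e-05). LHY (AT1G01060), with CCA1 one of the core dawn repressors of the clock, had 6.34, 8.596, 16.99 and 8.33 RPKM at ZT6, against 444, 489, 582 and 459 RPKM at ZT0 (change -5.56, SE 0.17, adjusted p = 4.8e-05). RVE1 (AT5G17300), which links the clock to auxin, had 0.917, 5.34, 12.8 and 2.01 RPKM at ZT6, against 113, 139.6, 216 and 123 RPKM at ZT0 (change -4.93, SE 0.32, adjusted p = 0.00054). Col and C24xCol kept more RVE1 at ZT6 than C24 and ColxC24, yet the times did not overlap.

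CCA1 (AT2G46830) fell too. It had 21.9, 39.5, 52.4 and 34.7 RPKM at ZT6, against 188, 233, 202 and 198 RPKM at ZT0 (change -2.49, SE 0.19, adjusted p = 0.00088). RVE8 and RVE4, activators of afternoon genes, were also called lower, by changes of -2.21 (SE 0.14) and -2.40 (SE 0.14). Their relative RVE7 (AT1G18330) went the other way and was called higher, with 12.9, 20.4, 22.05 and 28.3 RPKM at ZT6 and 0.469, 1.28, 0.696 and 1.21 RPKM at ZT0 (change 3.49, SE 0.15).

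The day-phased repressors PRR7 and PRR9, and LNK1, were close to 0 RPKM at ZT0 and high at ZT6. PRR7 (AT5G02810) had 50.9, 80.9, 49.6 and 54.7 RPKM at ZT6, against 0.114, 0.136, 0.0842 and 0.214 RPKM at ZT0 (change 5.69, SE 0.16, adjusted p = 4.2e-05). PRR9 (AT2G46790) had 15.6, 31.7, 29.3 and 24.3 RPKM at ZT6, against 0.0148, 0.0141, 0.0219 and 0.127 RPKM at ZT0 (change 4.6, SE 0.19, adjusted p = 0.00015). LNK1 (AT5G64170), a coactivator that works with RVE8, had 33.9, 53.4, 43.4 and 35.2 RPKM at ZT6, against 0.192, 0.608, 0.0945 and 0.1203 RPKM at ZT0 (change 5.08, SE 0.13, adjusted p = 4.2e-05). In these 3 genes each ZT6 library stood above each ZT0 library, and ColxC24 had the lowest ZT6 value of PRR9 and LNK1. LNK3 and LNK4, of the same family, were called higher by 1.29 (SE 0.16) and 1.96 (SE 0.34), while LNK2 (AT3G54500) did not pass at 103, 105, 106 and 115 RPKM at ZT6 and 74.2, 129.6, 90.5 and 76.8 RPKM at ZT0 (adjusted p = 0.32).

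In all, the 14 morning clock genes tested held 6 called higher, 6 called lower and 2 not called, LNK2 and AT5G52660; over all loci 9.34% were called higher and 19.4% lower. Their median change of 0.171, against -0.139 over all loci, lies between these opposite groups. PRR7, PRR9, LNK1 and RVE7 passed the filter only through ZT6, so 4 of the 6 called higher could be called in no other direction. The counts of 6 and 6 were the same without any 1 of the 4 genotype pairs and with each of the 3 other scalings.

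GI (AT1G22770), a regulator of the clock and of flowering, stood out among the genes that act later in the day. It had 12.2, 23.8, 16.4 and 13.7 RPKM at ZT6 and 0, 0, 0.0144 and 0.0105 RPKM at ZT0 (change 4.08, SE 0.18, adjusted p = 0.00019). PRR5 (AT5G24470) was called higher as well, with 2.14, 8.82, 4.93 and 1.76 RPKM at ZT6, against 0.3399, 0.255, 0.238 and 0.211 RPKM at ZT0 (change 1.91, SE 0.33, adjusted p = 0.009). All ZT6 values were above all ZT0 values, with C24xCol and Col above ColxC24 and C24. GRP8 (AT4G39260), an RNA-binding protein, had 118, 161, 158 and 158 RPKM at ZT6, against 61.3, 60.03, 99.7 and 73.9 RPKM at ZT0 (change 1.02, SE 0.15, adjusted p = 0.0059), and CHE, a factor that binds the CCA1 promoter, was the 4th called higher of this list (change 1.03, SE 0.22). GRP7 (AT2G21660), also of this list, did not pass (change -0.22, SE 0.24, adjusted p = 0.52). Its changes were -0.38, 0.51, -0.98 and -0.03.

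ELF3 (AT2G25930), the scaffold of the evening complex, was lower at ZT6. It had 7.4, 6.34, 7.63 and 7.01 RPKM at ZT6, against 12.2, 13.98, 11.01 and 13.6 RPKM at ZT0 (change -0.76, SE 0.14, adjusted p = 0.0109). Without the ColxC24 pair it did not pass (adjusted p = 0.0503). Its partners did not pass: ELF4 (AT2G40080) had 2.04, 4.95, 1.97 and 2.17 RPKM at ZT6, against 1.17, 1.8, 1.83 and 1.89 RPKM at ZT0 (change 0.44, adjusted p = 0.15), and LUX (AT3G46640) had 4.02, 4.85, 6.94 and 5.63 RPKM at ZT6, against 2.66, 5.22, 3.92 and 2.73 RPKM at ZT0 (change 0.47, adjusted p = 0.096). LUX was called without the C24xCol pair (adjusted p = 0.046) and in the fit of all 12 libraries (adjusted p = 0.042). In ELF4 all ZT6 values were above all ZT0 values, but by little except in C24xCol. LUX overlapped between times.

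BOA (AT5G59570), a close relative of LUX, had 0.264, 0.117, 0.184 and 0.14 RPKM at ZT6, against 3.42, 3.15, 3.45 and 2.42 RPKM at ZT0 (change -1.8, SE 0.15, adjusted p = 0.001), so that all ZT6 values were below all ZT0 values. JMJD5 (AT3G20810), a histone demethylase tied to the clock, had 0.268, 0.0272, 0.2397 and 0.257 RPKM at ZT6, against 2.02, 3.17, 5.34 and 2.199 RPKM at ZT0 (change -1.74, SE 0.23, adjusted p = 0.0041). TOC1 (AT5G61380) had 3.102, 6.9, 4.31 and 3.98 RPKM at ZT6, against 7.31, 9.597, 4.998 and 14.9 RPKM at ZT0 (change -0.82, SE 0.26, adjusted p = 0.055): C24 differed widely between times and Col little, and the groups overlapped. In the fit of all 12 libraries TOC1 was called (adjusted p = 0.025). The other genes called lower were COR27, a cold- and light-regulated repressor of clock genes (change -1.53, SE 0.30), and the F-box photoreceptor genes ZTL (-0.65, SE 0.14) and LKP2 (-0.51, SE 0.13). Of 17 day and evening clock genes 14 were tested, with 4 higher, 6 lower and 4 not called (median change -0.365, against -0.139 over all loci, of which 9.34% were called higher and 19.4% lower). The filter left GI and PRR5 only a rise and BOA, JMJD5 and COR27 only a fall, so 5 of these 10 calls had 1 possible direction. Without the Col pair 4 were higher and 3 lower, with a median of 0.032, and without the ColxC24 pair 3 and 3. PRR3, FKF1 and AT4G33980 were left out by the filter.

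**Figure D2:**
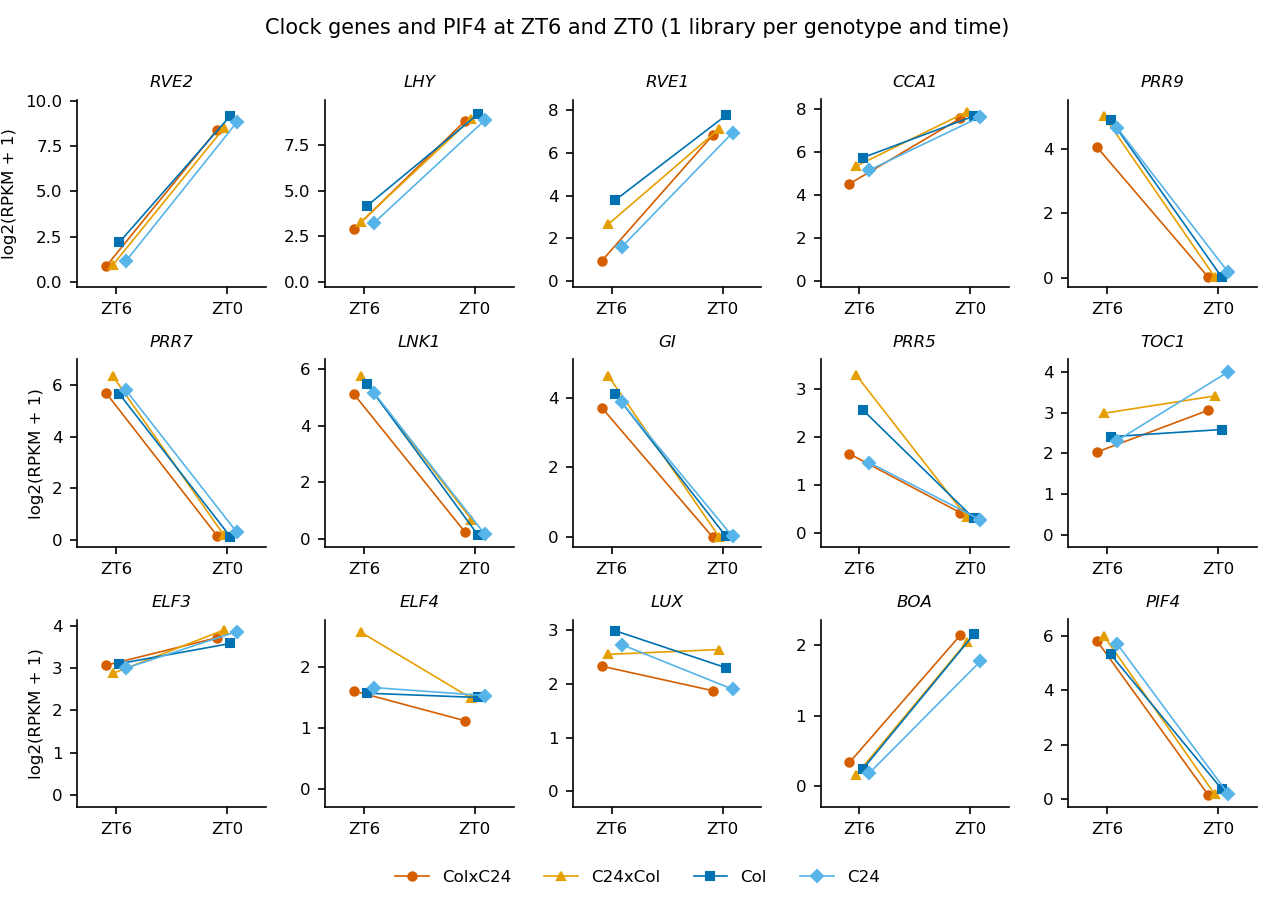
Levels of 14 clock genes and PIF4 at ZT6 (left of each panel) and ZT0 (right) on the log2(RPKM + 1) scale, which starts near 0 in each panel. Each point is 1 library and each line joins the libraries of 1 genotype; RVE2, LHY, RVE1, CCA1 and BOA are lower at ZT6 in all 4 genotypes, PRR9, PRR7, LNK1, GI, PRR5 and PIF4 are higher in all 4, and TOC1 and LUX overlap between times.

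Genes of the photoperiod pathway, through which day length controls flowering, were mostly lower at ZT6. COL2 (AT3G02380), a B-box factor of the CONSTANS family, had 32.5, 22.03, 35.6 and 39.8 RPKM at ZT6, against 314, 346, 339 and 272 RPKM at ZT0 (change -3.28, SE 0.20, adjusted p = 0.00046). COL1 (AT5G15850) had 8.66, 19.7, 26.4 and 15.4 RPKM at ZT6, against 101, 126, 163 and 162 RPKM at ZT0 (change -2.98, SE 0.19, adjusted p = 0.00053). CDF2 (AT5G39660), a DOF factor that represses CONSTANS, had 1.901, 3.18, 4.83 and 2.26 RPKM at ZT6, against 20.1, 40.3, 27.6 and 31.4 RPKM at ZT0 (change -2.94, SE 0.20, adjusted p = 0.00063). CDF3 (AT3G47500) of the same family was the single member called higher, with 50.6, 70.03, 67.3 and 58.1 RPKM at ZT6, against 5.197, 10.4, 3.99 and 7.78 RPKM at ZT0 (change 3.05, SE 0.21, adjusted p = 0.00063). In each of these 4 genes the times did not overlap.

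CO (AT5G15840) itself was low, at 0.106, 0.202, 0.236 and 0.0846 RPKM at ZT6 and 3.76, 3.09, 9.51 and 3.51 RPKM at ZT0, and was called lower (change -2.25, SE 0.24). Of 11 listed genes 8 were tested, with 1 higher, 5 lower and 2 not called, beside 9.34% higher and 19.4% lower over all loci; the median was -1.495, against -0.139. CO passed the filter only through ZT0 and could only be called lower. Without the ColxC24, C24xCol or C24 pair 9 genes passed the filter, with medians of -0.654, -0.715 and -0.909. FT, AT1G69570 and TSF were left out by the filter. The 2 not called were FLC (AT5G10140) and SOC1: FLC had 59.95, 72.9, 0 and 53.8 RPKM at ZT6, against 83.6, 91.6, 0.139 and 93.97 RPKM at ZT0, and the adjusted p was 0.060. COL9 (AT3G07650), another B-box gene outside the list, was among the 12 widest falls, with 0.471, 0.797, 1.099 and 0.455 RPKM at ZT6, against 26.97, 36.5, 43.4 and 32.1 RPKM at ZT0 (change -4.39, SE 0.12, adjusted p = 4.2e-05).

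PIF4 (AT2G43010), a growth-promoting bHLH factor, was among the widest rises. It had 54.7, 62.6, 39 and 50.9 RPKM at ZT6, against 0.115, 0.132, 0.307 and 0.149 RPKM at ZT0 (change 5.47, SE 0.17, adjusted p = 4.8e-05). PIF5 (AT3G59060) had 56.1, 61.2, 54.5 and 61.7 RPKM at ZT6, against 13.7, 30.04, 15.4 and 21.6 RPKM at ZT0 (change 1.55, SE 0.18, adjusted p = 0.0029) and PIF7 (AT5G61270) had 26.2, 28.6, 39.4 and 24.2 RPKM at ZT6, against 8.86, 8.44, 8.94 and 8.34 RPKM at ZT0 (change 1.64, SE 0.14, adjusted p = 0.0012). All 3 rose without overlap between times, as did 8.5% of all loci. They were named for a low adjusted p, which favours genes without overlap. PIF3 was also called (change 0.74, adjusted p = 0.034), but not without the Col, ColxC24 or C24xCol pair (adjusted p = 0.11 to 0.14). The other genes of the list tested, PIF1 and the growth and shade genes HFR1, ATHB2, HAT2 and IAA19, did not pass, with changes of -0.46 to 0.40. In all, 9 of 14 listed genes were tested, with 4 called higher and 0 lower, beside 9.34% and 19.4% of all loci. The list median was 0.398, against -0.139 over all loci. PIL1, IAA29, YUC8, XTH15 and CKX5 were left out by the filter.

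The light-harvesting antenna, the chlorophyll-binding proteins that feed light energy to both photosystems, was higher at ZT6 in most of its genes. Of 20 genes tested, 17 were called higher and 2 lower, against 9.34% and 19.4% of all loci, with a median change of 1.852, against -0.139 over all loci. Their summed level was 130997, 114858, 81730 and 121383 RPKM at ZT6, against 38767, 39493, 25484 and 33870 RPKM at ZT0. This was 9.80% (Col) to 14.8% (ColxC24) of the summed RPKM of a library at ZT6, against 3.11% (Col) to 4.63% (C24xCol) at ZT0. Col was the lowest genotype at each time.

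Genes of the major antenna of photosystem II led the list. LHCB1.2 (AT1G29910) had 12742, 9779, 4751 and 14904 RPKM at ZT6, against 993, 980.4, 362 and 1288 RPKM at ZT0 (change 3.56, SE 0.11, adjusted p = 4.8e-05). LHCB1.5 (AT2G34420) had 12360, 12674, 7816 and 10104 RPKM at ZT6, against 1471, 1318, 1138 and 1125 RPKM at ZT0 (change 3.07, SE 0.11, adjusted p = 9.7e-05). LHCB1.4 (AT2G34430) had 6993, 3792, 2395 and 4531 RPKM at ZT6, against 1039, 690, 471 and 666 RPKM at ZT0 (change 2.58, SE 0.12, adjusted p = 0.00019). Col had the lowest value of LHCB1.2 and LHCB1.4 at each time, and the times did not overlap in any of the 3. LHCB2.3 (AT3G27690), which encodes a further subunit of this antenna, had 3065, 2500, 1681 and 2199 RPKM at ZT6, against 340, 265, 125 and 286 RPKM at ZT0 (change 3.27, SE 0.15, adjusted p = 0.0002). LHCB1.1, LHCB1.2 and LHCB1.3 are near-identical copies, as are LHCB2.1 and LHCB2.2. How reads with several matches were counted is not given in the sources used here, so the division between such copies is uncertain.

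Among the antenna of photosystem I, LHCA1 (change 2.43, SE 0.14) and LHCA4 (2.27, SE 0.14) were called higher, as were LHCA3 (1.39, SE 0.11) and LHCA2 (0.64, SE 0.11). The minor antenna LHCB4.1, LHCB4.2, LHCB5 and LHCB6 rose by 0.67 to 1.77. Those called lower were LHCA5 (AT1G45474), with 238, 226, 225 and 204 RPKM at ZT6 and 328, 332, 362 and 251 RPKM at ZT0 (change -0.50, adjusted p = 0.024), and LHCB4.3 (change -0.63, adjusted p = 0.023). Both calls were lost without the Col pair or the ColxC24 pair, each of which left 0 lower in the list. LHCA6 did not pass (change -0.11, adjusted p = 0.56). These 3 genes had the lowest mean levels of the list, with no value above 362 RPKM.

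Chlorophyll synthesis moved in the same direction in fewer genes. Of 22 genes tested, 7 were called higher and 0 lower, beside 9.34% and 19.4% of all loci (median 0.385, against -0.139; 3 higher without the ColxC24 pair, 4 without the C24 pair and 10 with median-of-ratios scaling). The light-dependent protochlorophyllide reductase PORB (AT4G27440) had 869, 604, 404 and 550 RPKM at ZT6, against 165, 119.5, 98.4 and 127 RPKM at ZT0 (change 2.21, SE 0.12, adjusted p = 0.00033). PORC (AT1G03630), of the same enzyme family, had 335, 267, 223 and 324 RPKM at ZT6, against 144, 85.96, 126 and 112 RPKM at ZT0 (change 1.29, SE 0.16, adjusted p = 0.0036). HEME1 and HEME2, which encode uroporphyrinogen decarboxylases, rose by 0.83 (SE 0.13) and 0.68 (SE 0.14); HEME2 lost its call without the ColxC24 pair (adjusted p = 0.078). The other 3 called were HEMD, PPOX and CRD1, at 0.39 to 0.43. The magnesium chelatase subunits CHLH, CHLI1, CHLI2 and CHLD did not pass (changes 0.13 to 0.58), and PORA was left out by the filter.

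Calvin cycle genes, the carbon-fixing enzymes, were lower or did not pass. Of 18 tested, 11 were called lower and 0 higher by limma, beside 19.4% and 9.34% of all loci, with a median of -0.485, against -0.139. PRK (AT1G32060), phosphoribulokinase, had 1197, 1281, 1111 and 1342 RPKM at ZT6, against 2349, 2220, 2304 and 2217 RPKM at ZT0 (change -0.89, SE 0.11, adjusted p = 0.0031). The glyceraldehyde-3-phosphate dehydrogenase gene GAPA (AT3G26650) had 1884, 1664, 1847 and 2038 RPKM at ZT6, against 3421, 3386, 3021 and 2906 RPKM at ZT0 (change -0.78, SE 0.12, adjusted p = 0.0059). Its partner subunit GAPB changed by -0.61 (SE 0.11), and CP12-2, which encodes a small protein that binds PRK and this dehydrogenase, by -1.16 (SE 0.21).

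The count of Calvin cycle genes called depended on the scaling and on single pairs. The median was -0.327 with median-of-ratios scaling, with 3 called lower, and -0.621 with quantile normalization, with 12 called lower. The count was 2 without the ColxC24 pair, 6 without the Col pair and 7 without the C24xCol pair. In C24 the change was the largest, in 15 of the 18 genes, as the smallest fall or as a value above 0, against 19.9% of all loci, although C24 had the lowest median over all loci (-0.252). Among the Rubisco small subunits, whose copies are nearly alike, RBCS1B and RBCS2B were called lower (changes -0.71 and -0.76) and RBCS1A and RBCS3B were not (-0.24 and -0.14).

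Starch genes changed in both directions. Of 20 genes of starch breakdown, 10 were called higher and 4 lower, the lower share near the 19.4% of all loci and the higher share above the 9.34% of all loci. BAM9 (AT5G18670), which encodes a beta-amylase-like protein, had 8.64, 13.5, 16.9 and 12.5 RPKM at ZT6, against 369, 411, 543 and 432 RPKM at ZT0 (change -5.0, SE 0.13, adjusted p = 4.2e-05). BAM3 (AT4G17090), the main beta-amylase of leaf chloroplasts, had 66.03, 179.9, 245 and 128 RPKM at ZT6, against 1007, 1106, 1697 and 1140 RPKM at ZT0 (change -3.11, SE 0.22). Both were far lower at ZT6 in each genotype. PWD and BAM4 were the other 2 called lower (changes -0.62 and -1.01).

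The rises in this list were of other enzymes. AMY3 (AT1G69830), a plastid alpha-amylase, had 62.4, 74.9, 56.4 and 67.9 RPKM at ZT6, against 7.15, 4.501, 4.5 and 3.58 RPKM at ZT0 (change 3.51, SE 0.18, adjusted p = 0.00031). PHS1 (AT3G29320), the plastid starch phosphorylase, had 175, 124, 89.4 and 152 RPKM at ZT6, against 29.5, 22.8, 9.697 and 27.1 RPKM at ZT0 (change 2.61, SE 0.15, adjusted p = 0.00044). DPE2 (AT2G40840), which handles maltose in the cytosol, had 85.7, 114, 82.6 and 64.9 RPKM at ZT6, against 18.7, 19.1, 16.95 and 17.9 RPKM at ZT0 (change 2.17, SE 0.15, adjusted p = 0.00065). None of these overlapped between times. PHS2, GWD1, SEX4, LSF1, LSF2 and DPE1 were called higher by 0.81 to 2.37. The 10th was BAM5 (AT4G15210), a beta-amylase gene and one of the 12 widest rises, with 128, 42.7, 169 and 23.4 RPKM at ZT6, against 1.01, 0.473, 0.184 and 0.198 RPKM at ZT0 (change 5.6, SE 0.44, adjusted p = 0.00095), which the filter left only a rise; its ZT6 level was lower in C24 and C24xCol than in Col and ColxC24.

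Of 16 genes of starch synthesis, 8 were called higher and 2 lower, beside 9.34% and 19.4% of all loci (median 0.321; 2 higher without the ColxC24 pair, 3 without the C24xCol pair and 4 without the Col pair). GBSS1 (AT1G32900), the granule-bound synthase that makes amylose, had 42.5, 83.8, 79.7 and 31.7 RPKM at ZT6, against 173, 173, 286 and 114 RPKM at ZT0 (change -1.67, SE 0.18, adjusted p = 0.0024). SBE2.1, a branching enzyme gene, was the other called lower (change -0.45). SS1 (AT5G24300), a soluble synthase, had 100.2, 84.8, 86.4 and 99.4 RPKM at ZT6, against 57.4, 48.5, 34.5 and 48.1 RPKM at ZT0 (change 0.98, SE 0.14, adjusted p = 0.0048). The isoamylase subunits ISA2 and ISA1 rose by 1.16 (SE 0.14) and 0.66 (SE 0.12); ISA1 was not called without the ColxC24 pair (adjusted p = 0.060). The other 5 called higher were APL2, APL3, APL4, SS3 and SBE2.2, at 0.45 to 1.37. APS1 and APL1, the main subunits of leaf ADP-glucose pyrophosphorylase, did not pass (changes 0.14 and 0.02).

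Genes that respond to sugar starvation, and genes of the trehalose phosphate family, were divided. TPS9 (AT1G23870) had 1.61, 3.11, 3.88 and 1.57 RPKM at ZT6, against 19.1, 26.2, 38.2 and 27.1 RPKM at ZT0 (change -3.03, SE 0.15, adjusted p = 0.00027), whereas TPS5 (AT4G17770) of the same family had 11, 16.3, 13.1 and 13.5 RPKM at ZT6, against 5.27, 4.37, 3.73 and 4.06 RPKM at ZT0 (change 1.43, SE 0.16, adjusted p = 0.0025). The times did not overlap in either gene. AKINBETA1 (AT5G21170), a regulatory subunit of the SnRK1 energy-sensing kinase, had 10.2, 8.89, 11.8 and 7.95 RPKM at ZT6, against 24.3, 34.8, 51.6 and 22.5 RPKM at ZT0 (change -1.61, SE 0.18, adjusted p = 0.0024). DIN9, which encodes a phosphomannose isomerase, rose by 1.08 (SE 0.13), and KMD4, an F-box gene, by 0.83 (SE 0.11). TPS10 and DIN10, a raffinose synthase-like gene, fell, with changes of -1.88 (SE 0.25) and -2.18 (SE 0.40). In all, 3 of 13 tested were higher, 4 lower and 6 not called, beside 9.34% higher and 19.4% lower of all loci, and DIN11 and BCAT2 were left out by the filter.

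Genes of nitrogen assimilation were lower or did not pass. Of 14 genes tested, 0 were called higher by limma and 9 lower, beside 9.34% and 19.4% of all loci, with a median of -0.688, against -0.139. The 9 include the nitrate transporter gene NRT2.1, which passed the filter only through ZT0 and could only be called lower. NIA2 (AT1G37130), the major nitrate reductase, had 206, 431, 583 and 425 RPKM at ZT6, against 2012, 3152, 3174 and 2546 RPKM at ZT0 (change -2.79, SE 0.16, adjusted p = 0.00041). UPM1 (AT5G40850), which makes a cofactor of nitrite reductase, had 29.6, 33.01, 52.02 and 45.2 RPKM at ZT6, against 164, 222, 279.6 and 184 RPKM at ZT0 (change -2.39, SE 0.15, adjusted p = 0.00051). ASN2 (AT5G65010), an asparagine synthetase, had 56.1, 74.5, 124 and 91 RPKM at ZT6, against 433, 489, 460 and 322 RPKM at ZT0 (change -2.33, SE 0.22, adjusted p = 0.0015). In each the ZT6 values were all below the ZT0 values, and ColxC24 was the lowest at ZT6. GLT1, the NADH-dependent glutamate synthase, changed by -1.60 (SE 0.19). NIR1 did not pass (change -0.53, adjusted p = 0.053). Of the list, 1 gene was called higher with median-of-ratios scaling, with quantile normalization, in the fit of all 12 libraries and without the C24 pair. Without the ColxC24 pair 6 were called lower.

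In the phenylpropanoid and flavonoid list, 1 of 13 tested was higher and 6 lower, beside 9.34% and 19.4% of all loci. The count called lower was 3 without the ColxC24 or the C24xCol pair, 4 with either of these scalings, median-of-ratios and quantile, 5 without the C24 pair and 7 without the Col pair. HYH (AT3G17609), a light-signalling bZIP factor, had 7.73, 23.2, 31.5 and 30.3 RPKM at ZT6, against 108, 107, 110.1 and 128 RPKM at ZT0 (change -2.4, SE 0.31, adjusted p = 0.0037). HY5 (AT5G11260), its close relative, had 3.83, 7.22, 9 and 7.12 RPKM at ZT6, against 14.8, 17.9, 16.6 and 16.2 RPKM at ZT0 (change -1.2, SE 0.17, adjusted p = 0.0049). PAL2 (AT3G53260), which opens the phenylpropanoid pathway, had 47.2, 64.5, 98.8 and 92.5 RPKM at ZT6, against 265, 263, 373 and 143 RPKM at ZT0 (change -1.75, SE 0.29, adjusted p = 0.0084), and PAL1 changed by -0.98 (SE 0.19); PAL1 was not called without the ColxC24 or the C24xCol pair (adjusted p = 0.059 and 0.052). The gene called higher was PAP1 (AT1G56650), a MYB activator of anthocyanin genes, with 6.42, 10.9, 27.1 and 0.311 RPKM at ZT6 and 0.0442, 0.04205, 0 and 0 RPKM at ZT0 (change 2.89, SE 0.65), and without the Col, the ColxC24 or the C24xCol pair 0 genes of the list were called higher.

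The flavonoid enzyme genes CHS (AT5G13930), CHI, F3H and FLS1 did not pass. CHS, chalcone synthase, had 204, 195, 479 and 376 RPKM at ZT6, against 521, 317, 344 and 201 RPKM at ZT0. It was lower at ZT6 in both hybrids and higher in both parents. The limma comparison of hybrids with parents, described below, covered CHS and called 0 of 17079 loci. The list median was -1.709 in ColxC24, -0.993 in C24xCol, 0.167 in Col and -0.504 in C24. TT7, DFR, LDOX, MYB11 and MYB12 were left out by the filter.

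Jasmonate genes held the 2 widest rises among the loci named. Jasmonate is a lipid hormone of wounding and defence, whose JAZ repressors are themselves induced by it. VSP2 (AT5G24770), a vegetative storage protein gene and a common marker of the hormone, had 1286, 503, 1277 and 35.04 RPKM at ZT6, against 1.42, 0.635, 3.33 and 0.268 RPKM at ZT0 (change 7.59, SE 0.65, adjusted p = 0.0012). VSP1 (AT5G24780), its near-identical neighbour in sequence, had 841, 201, 591 and 25.2 RPKM at ZT6, against 0.299, 0.248, 0.275 and 0.12 RPKM at ZT0 (change 7.52, SE 0.75, adjusted p = 0.0017). C24 had the lowest ZT6 level of both genes, though above all ZT0 values.

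Genes of jasmonate synthesis and signalling were also higher. AOS (AT5G42650), allene oxide synthase, had 618, 783, 651 and 217 RPKM at ZT6, against 57.4, 41.99, 55.2 and 49.1 RPKM at ZT0 (change 3.31, SE 0.32, adjusted p = 0.0015). MYC2 (AT1G32640), the main transcription factor of the pathway, had 75.7, 122, 77.5 and 32.4 RPKM at ZT6, against 3.11, 4.36, 5.72 and 7.54 RPKM at ZT0 (change 3.56, SE 0.41, adjusted p = 0.0027). LOX2 (AT3G45140), a plastid lipoxygenase, had 2143, 2139, 2835 and 738 RPKM at ZT6, against 354, 187, 191 and 273 RPKM at ZT0 (change 2.86, SE 0.39). In all 3 the times did not overlap and C24 was the lowest at ZT6. AOC1, AOC2, OPR3 and LOX3, of the same route, rose by 1.41 to 3.64, and JAZ1, JAZ2, JAZ3, JAZ5, JAZ9 and JAZ12 by 0.74 to 3.29. AOC1 and AOC2 are near-identical copies.

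Of 19 listed jasmonate genes 17 were tested, and 15 were called higher and 0 lower by limma, beside 9.34% and 19.4% of all loci, with a median of 2.457, against -0.139. The filter left VSP1 and JAZ10 only a rise. The 2 not called were JAZ6 (change 0.39) and JAZ10 (1.15), and JAZ7 and JAZ8 were left out by the filter. The count was 12 without the ColxC24 or the C24xCol pair, 13 without the Col pair and 10 without the filter. The rise was the smallest in C24 in 16 of the 17 genes, whereas C24 had the smallest change in 40.5% of all loci. The list median was 2.142 in ColxC24, 3.238 in C24xCol, 3.174 in Col and 0.884 in C24. With 1 library for each genotype and time, C24 was not tested against the others, and whether the genotype or the single ZT6 library is behind its smaller rise cannot be told apart.

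In the cold-response list 3 of 10 genes tested were called higher and 0 lower by limma, beside 9.34% and 19.4% of all loci, with a median of 1.387, against -0.139. COR15A (AT2G42540), which encodes a protein that protects chloroplast membranes on freezing, had 60.1, 123, 1768 and 31.1 RPKM at ZT6, against 4.52, 3.33, 3.85 and 2.07 RPKM at ZT0 (change 5.05, SE 0.83, adjusted p = 0.0081). Col at ZT6 was far above the other 3 libraries of that time, which were themselves above all ZT0 values. Without the Col pair the change was 3.90 (adjusted p = 0.0051). COR15B (AT2G42530), its tandem copy, had 37.5, 95.97, 230.5 and 37.6 RPKM at ZT6, against 7.11, 3.12, 2.19 and 3.72 RPKM at ZT0 (change 4.0, SE 0.61, adjusted p = 0.0062), and a change of 3.28 (adjusted p = 0.0139) without the Col pair. COR413-PM1 (AT2G15970), a membrane protein gene, had 251, 267, 313 and 183 RPKM at ZT6, against 90.6, 88.04, 73.2 and 68.5 RPKM at ZT0 (change 1.64, SE 0.15, adjusted p = 0.0014), with the genotypes close together.

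The other 7 of the 10 genes tested did not pass. RD29A (AT5G52310) had 2.94, 21.5, 216 and 2.14 RPKM at ZT6, against 0.808, 0.922, 3.31 and 1.86 RPKM at ZT0, COR47 (AT1G20440) had 11.6, 59.4, 301 and 21.4 RPKM at ZT6, against 65.4, 60.3, 72.5 and 61.6 RPKM at ZT0, and KIN2 (AT5G15970) had 156, 280.3, 607 and 77.04 RPKM at ZT6, against 89.9, 80.5, 124 and 95.9 RPKM at ZT0. In each the groups overlapped and Col at ZT6 was the highest of the 8 libraries. Col had the largest change in 9 of the 10 genes, against 33.3% of all loci. The list median was 0.896 in ColxC24, 1.688 in C24xCol, 2.496 in Col and -0.028 in C24, and 0.756 without the Col pair, where 4 of 11 tested were called higher. Without the C24xCol pair 3 of 10 were called higher and 1 lower, with a median of 1.294. Without the C24 pair 7 of 11 were called higher. CBF1, CBF2, CBF3 and GOLS3 were left out by the filter.

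**Figure D3:**
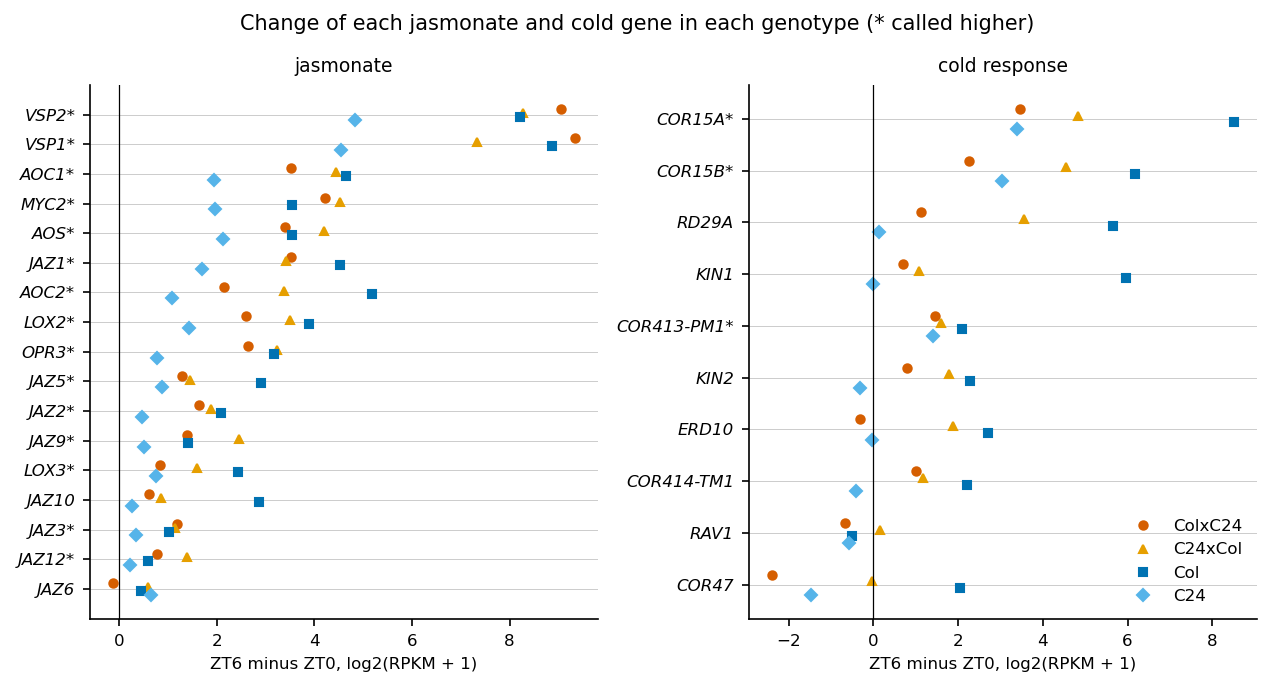
Change (ZT6 minus ZT0, log2 of RPKM + 1) of the 17 jasmonate and 10 cold-response genes tested, with 1 point for each genotype and an asterisk where the gene was called higher. C24 (light blue diamonds) is the lowest in 16 of 17 jasmonate genes, and Col (dark blue squares) is the highest in 9 of 10 cold genes.

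The 6 loci in which Col departed most from the other genotypes were chosen for that difference and are a description. LTP3 (AT5G59320), a lipid transfer protein gene, had 3.55, 88.2, 691 and 2.15 RPKM at ZT6, against 1.36, 2.65, 0.438 and 3.37 RPKM at ZT0. LTP4 (AT5G59310) had 0.974, 5.2, 268 and 0.516 RPKM at ZT6, against 0, 0.366, 0.0946 and 0.275 RPKM at ZT0, and LTP2 (AT2G38530) had 3.03, 4.699, 209 and 1.09 RPKM at ZT6, against 1.02, 0.8604, 2.22 and 1.23 RPKM at ZT0. ELI3-2 was at 50.6 RPKM in Col at ZT6 and at most 0.0305 RPKM in the other 7 libraries. AT3G02480, of the late embryogenesis abundant family, was at 51.8 RPKM in Col at ZT6 and at most 0.483 RPKM elsewhere, and KIN1, a cold-induced gene, at 75.0 RPKM and at most 3.72 RPKM. None of the 6 was called over time by limma, with adjusted p of 0.12 to 0.36. An unequal change among genotypes is the spread behind p, and the 6 were chosen for it. Their missing calls therefore follow largely from the choice.

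The heat shock list gave 1 call in 7 tested, a lower one, beside 19.4% of all loci called lower. HSFA7A (AT3G51910), a heat shock factor gene, had 0.0468, 0, 0.1396 and 0.0496 RPKM at ZT6, against 3.75, 3.52, 4.08 and 2.75 RPKM at ZT0 (change -2.09, SE 0.15, adjusted p = 0.00076). It passed the filter only through its ZT0 level and could only be called lower. HSP101, HSP18.2, HSP70-1, HSP70B, HSP17.6II and HSP90.1 did not pass (changes -0.35 to 1.02). The other 7 listed genes were left out by the filter. Heat shock genes outside the list differed from it. Of 19 loci tested with HSP symbols, 6 were called higher (31.6%, against 9.34% of all loci) and 1 lower (5.3%). Their median change was 0.491, against -0.139 over all loci. Of 104 loci annotated with heat shock wording, 12 were called higher (11.5%) and 16 lower (15.4%), with a median of 0.009. These counts were made after the values were seen and were not tested. Of 7 genes of touch and rapid stress tested, 1 was called lower, no larger a share than over all loci (19.4%): TCH3 (AT2G41100), a calmodulin-like gene, had 13.8, 63.2, 32.6 and 51.9 RPKM at ZT6, against 63.6, 134, 94.9 and 196 RPKM at ZT0 (change -1.65, SE 0.19, adjusted p = 0.0029). TCH2, TCH4 and the stress factors WRKY33, WRKY40, ZAT10 and ZAT12 did not pass and overlapped between times. CML38, ERF5, ERF6 and MYB15 were left out by the filter.

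Salicylic acid defence genes were mostly not called. Of 17 tested, 3 were lower and 0 higher by limma, a share near the 19.4% of all loci called lower, with a median of -0.315. Without the C24 pair 2 of 16 were called higher and 4 lower, with a median of 0.044, and without the ColxC24 pair 2 of 17 were called lower. PR1 (AT2G14610), a marker of this hormone, had 3.48, 3.08, 0.0501 and 125 RPKM at ZT6, against 32.5, 24.8, 7.92 and 1019 RPKM at ZT0 (change -2.92, SE 0.13, adjusted p = 0.00019). It fell in each genotype, although C24 at ZT6 was above Col, ColxC24 and C24xCol at ZT0, so the groups overlap when the pairing is left out; without the genotype term it was not called (adjusted p = 0.24). PAD4 (AT3G52430), a lipase-like regulator of basal defence, had 4.64, 5.21, 5.01 and 13.8 RPKM at ZT6, against 16.6, 26.1, 18.4 and 73.4 RPKM at ZT0 (change -1.95, SE 0.16, adjusted p = 0.001). PR2 (AT3G57260), a beta-1,3-glucanase gene, had 6.72, 3.79, 7.63 and 61.6 RPKM at ZT6, against 23.4, 31.97, 14.9 and 125 RPKM at ZT0 (change -1.58, SE 0.32, adjusted p = 0.0148); it was not called without the ColxC24 pair (adjusted p = 0.062). The change was the smallest, that is the most negative, in C24 in 15 of the 17 genes, against 40.5% of all loci. The list median was -0.267 in ColxC24, 0.479 in C24xCol, -0.116 in Col and -1.426 in C24. WRKY70 (AT3G56400), at 27.2, 11.7, 12.6 and 17.59 RPKM at ZT6 and 21.7, 69.1, 14.9 and 343 RPKM at ZT0, did not pass (adjusted p = 0.14).

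**Figure D4:**
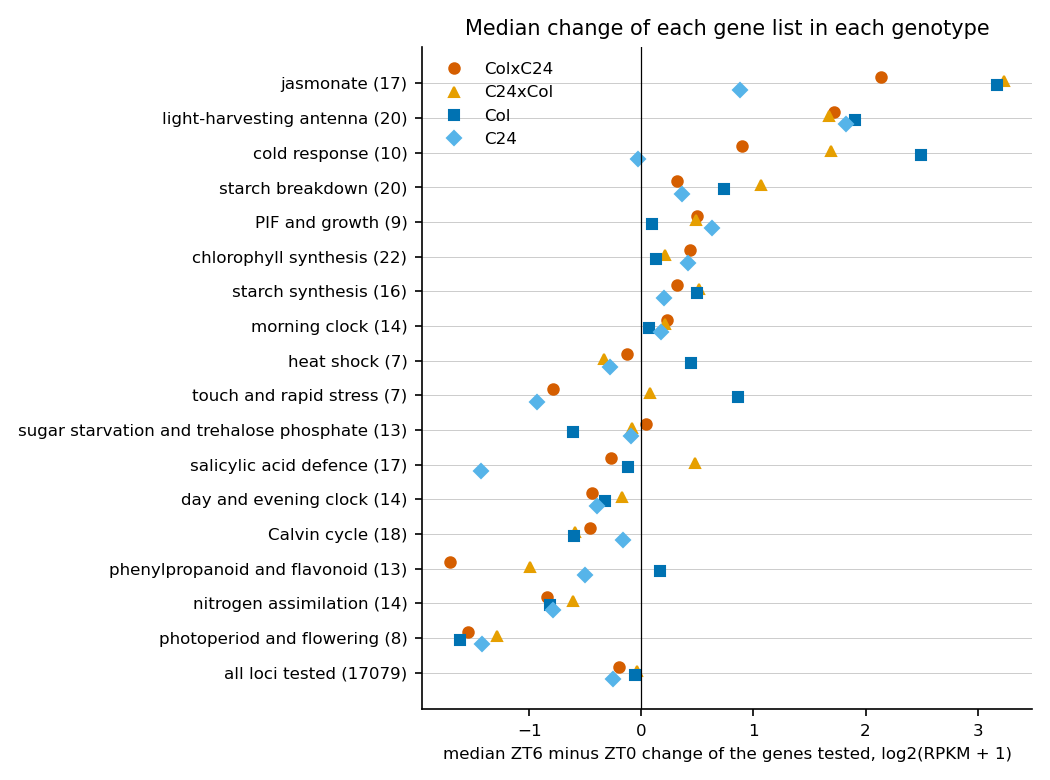
Median ZT6 minus ZT0 change (log2 of RPKM + 1) of the genes tested in each of 17 lists, 1 point per genotype, ordered by the list median over genotypes, with the number of genes in parentheses and all loci at the bottom. The antenna and nitrogen lists lie close together in the 4 genotypes, whereas jasmonate (0.884 in C24 to 3.238 in C24xCol) and cold response (-0.028 in C24 to 2.496 in Col) are spread.

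Several of the 12 widest changes in each direction lay outside the lists. Upwards, CIPK20 (AT5G45820), a protein kinase regulated by calcium sensors, had 48.5, 63.9, 50.8 and 63.3 RPKM at ZT6, against 0.516, 0.885, 0.457 and 0.139 RPKM at ZT0 (change 5.28, SE 0.17, adjusted p = 4.8e-05). AT1G14250, annotated as a nucleoside phosphatase of the GDA1/CD39 family, had 350, 129.5, 185 and 112 RPKM at ZT6, against 3.86, 1.99, 0.616 and 10.2 RPKM at ZT0 (change 5.45, SE 0.53, adjusted p = 0.0017). AT1G73325, a protease inhibitor of the Kunitz family, had 132, 142, 88.6 and 29.7 RPKM at ZT6, against 1.39, 0.862, 0.624 and 1.36 RPKM at ZT0 (change 5.39, SE 0.41, adjusted p = 0.00088). In CIPK20 the 4 genotypes were close together at ZT6, while C24 was the lowest of the 4 in the other 2 genes. AT4G17470, annotated as an alpha/beta hydrolase, was also lowest in C24 at ZT6, with 179, 40.2, 83.3 and 11.7 RPKM at ZT6, against 0.923, 0.716, 0.656 and 1.76 RPKM at ZT0 (change 4.75, SE 0.66, adjusted p = 0.0046).

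Downwards, BT2 (AT3G48360), a BTB and TAZ domain scaffold protein, had 1.84, 2.66, 8.47 and 2.399 RPKM at ZT6, against 286, 339.7, 458 and 273 RPKM at ZT0 (change -6.28, SE 0.20, adjusted p = 4.8e-05). Its relative BT5 (AT4G37610) had 0.8398, 1.38, 2.88 and 0.904 RPKM at ZT6, against 33.1, 38.4, 89.6 and 32.1 RPKM at ZT0 (change -4.23, SE 0.13, adjusted p = 4.8e-05). SAG21 (AT4G02380), a gene first described in senescing leaves, had 3.43, 20.5, 32.3 and 10.8 RPKM at ZT6, against 455, 1034, 1390 and 1394 RPKM at ZT0 (change -6.14, SE 0.28, adjusted p = 0.00019). In these 3 genes Col kept the most at ZT6 and the times did not overlap. AT1G49200, a RING-type protein, had 0.326, 0.813, 1.58 and 0.906 RPKM at ZT6, against 59.8, 80.98, 147 and 48.4 RPKM at ZT0 (change -5.39, SE 0.20, adjusted p = 9.7e-05). AT1G26790, of the DOF factor family, had 0, 0, 0.608 and 0.205 RPKM at ZT6 and 21.1, 35.5, 27.1 and 19.4 RPKM at ZT0 (change -4.46, SE 0.21, adjusted p = 0.00021). AT4G21870, annotated as HSP20-like, and AT4G15430, of an early-responsive-to-dehydration family, were lower, with changes of -4.0 (SE 0.40) and -3.99 (SE 0.15).

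Whether hybrids changed more or less than parents was asked with an interaction term. With limma 0 of 17079 loci were called (0%) and 503 had an unadjusted p under 0.05. That is a smaller share of the loci than the 0.05 that would pass if nothing differed. The fit leaves 2 residual degrees of freedom. In each alternative with all 4 genotypes in which it was run 0 were called. Without 1 genotype pair, hybrids or parents are left with 1 genotype, so no count is given there. The 6 loci with the widest difference were taken for it and are a description. AT1G19960 had 74.8, 241, 6.82 and 30.5 RPKM at ZT6, against 21, 49.1, 15.4 and 146 RPKM at ZT0. It was higher at ZT6 in both hybrids and lower in both parents (difference of changes 3.68, SE 0.46, unadjusted p = 0.00031, adjusted p = 0.9998). AT2G43620, a chitinase-family gene, had 0.148, 1.602, 51.2 and 1.49 RPKM at ZT6, against 0.779, 3.49, 1.73 and 0.711 RPKM at ZT0: it was lower in both hybrids and higher in both parents, with the difference set mainly by Col (difference -3.11, SE 1.16, adjusted p = 0.9998).

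AT5G03350, a legume lectin gene, had 187, 219.9, 36.6 and 10.6 RPKM at ZT6, against 11.7, 58.7, 11.6 and 109 RPKM at ZT0, and PCR1 (AT1G14880) had 6.52, 282, 2.09 and 37.1 RPKM at ZT6, against 43.4, 67.8, 24.3 and 454 RPKM at ZT0. In both genes the value of C24 was lower at ZT6, while that of C24xCol was higher. AT2G23672, a non-coding RNA locus, was at 142 RPKM in ColxC24 at ZT6 and at most 18.4 RPKM in the other 7 libraries. ATCG01160, a chloroplast locus, had 10.3, 1.055, 1.89 and 7.55 RPKM at ZT6, against 7.51, 67.3, 187 and 312 RPKM at ZT0; it was also called lower over time (change -3.97, SE 1.02, adjusted p = 0.031). Chloroplast and mitochondrial loci held 0.207% to 0.4% of the summed RPKM at ZT6 and 0.321% to 0.961% at ZT0, and the part of this share in the result was not tested.

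**Figure D5:**
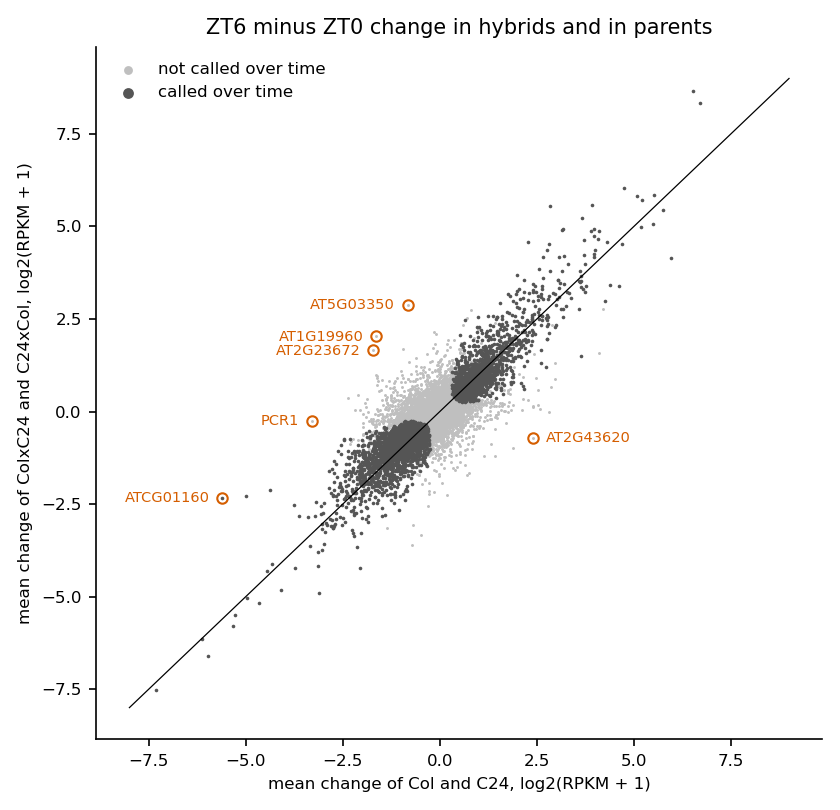
Mean change of the 2 hybrids (vertical axis) against mean change of the 2 parents (horizontal axis), ZT6 minus ZT0 on the log2(RPKM + 1) scale, for the 17079 loci tested. Dark points are loci called over time, the line marks equal change, and orange circles mark the 6 loci with the widest difference, which range from 3.72 for AT5G03350 to -3.11 for AT2G43620.

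The 4 libraries of ZT15, late in the light, were set beside these changes with no test. Of the 288 loci that were 2-fold higher at ZT6 in all 4 genotypes, the ZT15 mean lay between the ZT0 and ZT6 means in 200, above both in 46 and below both in 42. Of the 405 that were 2-fold lower, it lay between in 234, above both in 18 and below both in 153. LHY averaged 493, 10.06 and 1.16 RPKM at ZT0, ZT6 and ZT15. PRR7 averaged 0.137, 59.03 and 2.24 RPKM at ZT0, ZT6 and ZT15, and GI averaged 0.00622, 16.5 and 2.24 RPKM at ZT0, ZT6 and ZT15. The mean of LHY was thus lowest at ZT15, and those of PRR7 and GI were highest at ZT6.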

How the data were processed

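Rosette leaf mRNA was sequenced with Illumina libraries and 84 bp reads, per the labels' protocols. The authors deposited RPKM per gene model, 1 table for each library; the build was TAIR 9, per the submitters' processing notes. No label or header names the aligner, the handling of reads with several matches or the use of strand (not given in the sources used here): near-identical copies (LHCB1, LHCB2, RBCS, VSP, AOC and COR15 genes) are uncertain. C24 reads may align less well to a Col genome. Each change compares libraries of 1 genotype, but a gene whose C24 reads are lost can show no change in C24. How far the rank of C24 among the genotypes depends on this was not tested.

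The 38710 models were summed to 32592 loci, of which 31786 found a name in TAIR10.1, used for names and for transcript lengths only. The 17079 loci averaging 1 RPKM or more over the 8 libraries were tested on log2(RPKM + 1), computed from the deposited RPKM, with limma 3.58.1 in R 4.3.3 (genotype as block, empirical Bayes with a mean-variance trend, 3 residual degrees of freedom, two-sided, Benjamini-Hochberg adjusted over all loci, threshold 0.05). Hybrids and parents were compared with an interaction term. The code was tested on simulated data. Tables and figures were made with Python 3.11.15, pandas 2.3.3, numpy 2.4.6 and matplotlib 3.10.9.

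Depth was estimated from the smallest steps of low values and transcript lengths. Only 34.3% to 39.2% of values under 3.5 reads lay within 1% of a whole read, so reads were not recovered and no count test was run. The pairing comes from the genotype. The deviations of the 2 libraries of a genotype from their time means correlated with r = 0.356 in ColxC24, 0.223 in C24xCol, 0.494 in Col and 0.353 in C24. The highest correlation of each ZT6 library with a ZT0 library of another genotype was 0.116, 0.339, 0.032 and 0.078 in the same order, so for C24xCol another genotype came closer than its own.

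Named genes were the 12 called loci with the widest change in each direction (same sign in all 4 genotypes, mean of at least 3 RPKM), from each list the called genes with the lowest adjusted p (at most 4), 10 core clock genes, and the 6 loci with the widest difference of change between hybrids and parents and between Col and the rest. Further list members are given to account for a list. The comparison and the gene lists were chosen with earlier results of these data known. Alternatives changed the block, the libraries, the pseudocount, the filter, the scaling, the gene model, the variance trend or left out 1 genotype pair. The ZT15 libraries entered 1 alternative and the closing description of the report.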

Additional observations from a re-analysis of the deposited data

Results flagged for a closer look

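In 194 groups of 4 libraries of 1 time, 13 held a highest or lowest library whose gap to the next was past Dixon's 95% critical value for 4 samples; chance alone flags about 1 in 20 groups. Some of these genes were chosen for a library that departs, so the 13 cannot be read against that rate. The Col library of ZT6 was the highest of its time for ELI3-2 (50.6 RPKM), AT3G02480 (51.8 RPKM) and KIN1 (75.0 RPKM), which were named because Col departed there, so that their place here repeats the choice. It was also the highest for OST1 (14.2 RPKM) and the lowest for LHCB1.1 (8643 RPKM), which were not named for Col. Col was also lowest for LHCB1.1 at ZT0, with 1460 RPKM.

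C24 stood apart at ZT6 as the highest for PAD4 (13.8 RPKM) and the lowest for DIN9 (4.09 RPKM), and at ZT0 as the highest for PRR9 (0.127 RPKM). C24xCol stood apart at ZT6, lowest for JMJD5 (0.0272 RPKM) and highest for ELF4 (4.95 RPKM). ColxC24 was the lowest for GRP8 at ZT6 (118 RPKM) and for ELF4 at ZT0 (1.17 RPKM). The values of PRR9 and JMJD5 rest on few reads.

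Both hybrids moved one way and both parents the other in AT1G19960 (difference of changes 3.68) and AT2G43620 (-3.11). Both were picked for the size of this difference. In limma's interaction test neither passed after adjustment (adjusted p = 0.9998 each).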

How the results depend on the processing

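Leaving out 1 genotype pair gave 2235 to 4084 called loci, 838 to 1459 higher and 1397 to 2625 lower, against 4916, 1595 and 3321 with all 4; fewer libraries then enter the fit. Without the genotype block, that is without the pairing, 4115 loci were called (1217 higher, 2898 lower), 3926 of them shared with the paired fit. The named genes whose call was lost without the block were PR1, PR2, PIF3 and OST1. The other settings gave 3556 (no filter, 25781 loci) to 6783 calls (all 12 libraries). No named gene reversed in any alternative. In 35 combinations of gene and alternative a call was lost, 11 of them without the ColxC24 pair, and in 3 one was gained (LUX in 2, TOC1 in 1); the cause was not tested. The excess of ELI3-2, AT3G02480, KIN1 and LTP4 in Col moved by more than its spread in 10 combinations. With 1 library for each genotype and time, precision is set by the spread between genotypes, and values below 0.0596 RPKM on 1 kb are under 1 read in the shallowest library.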

Other observations

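Gene families outside the lists were looked at after the values were seen, so their counts are descriptions with no test. Among all symbol families counted, BGLU had the largest share called higher and ATG the largest share called lower. Their distance from the shares over all loci therefore follows in part from this choice. Of 16 loci named BGLU, the beta-glucosidase family, 9 were called higher and 0 lower by limma (56.2% higher, against 9.34% of all loci), with a median change of 0.86, against -0.139 over all loci. BGLU18, known for releasing abscisic acid from its glucose ester, had 221, 242, 600 and 100.5 RPKM at ZT6 in ColxC24, C24xCol, Col and C24, against 9.46, 6.94, 14.3 and 13.1 RPKM at ZT0 (change 4.37, SE 0.39). Of 19 loci with ATG symbols, most of them autophagy genes, 0 were called higher by limma and 10 lower (52.6%, against 19.4% of all loci; median -0.567, against -0.139). ATG8E had 16.5, 21.1, 12.9 and 18.5 RPKM at ZT6 in the same order, against 43.4, 51.1, 65.0 and 47.1 RPKM at ZT0 (change -1.53, SE 0.20).

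Ribosomal proteins were taken by the wording of their annotation, leaving out wordings with chloroplast, plastid or mitochondria. They were called higher in 77 of 291 loci (26.5%, against 9.34% of all loci) and lower in 9 (3.1%, against 19.4%). Their median was 0.269, against -0.139 over all loci. Ribosomal proteins of organelles whose annotation does not say so may be among them, so the group is not purely cytosolic. Loci annotated as RING or E3 ubiquitin ligases were called lower in 59 of 186 (31.7%, against 19.4% of all loci) and higher in 11 (5.9%, against 9.34%), with a median of -0.291, against -0.139. The surplus of lower calls over all loci depends on the scaling, and these families were not counted under another one.

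Among the 28 called loci whose genotypes differed in sign, FAMT, a farnesoic acid methyltransferase gene, had 100.6, 245, 92.1 and 13.4 RPKM at ZT6 in ColxC24, C24xCol, Col and C24, against 2.22, 2.55, 0.676 and 14.7 RPKM at ZT0. A further 10 called loci had a change of exactly 0 in 1 genotype. Of these ARGAH2, an arginase gene, had 444, 648, 1415 and 0 RPKM at ZT6, against 22.0, 20.8, 60.02 and 0 RPKM at ZT0. ARGAH2 was listed at 0 in C24 at both times, so only the other 3 genotypes carry its change.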
